A study of Mus musculus with 6 samples.

Results

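The regions described here are the accessible regions at serpin genes in NIH3T3 cells, an immortal mouse fibroblast line, profiled with ATAC-seq, an assay that uses the transposase Tn5 to cut and tag open DNA. They were taken as every region whose gene symbol starts with Serpin, plus every region within 150 kb of Serpina3b, Serpina3h or Serpinf1. This gave 60 of the 52957 regions in the table: 30 carried the name of 1 of 21 serpin genes, 12 lay in the window around Serpina3b and Serpina3h on chromosome 12, and 22 lay in the window around Serpinf1 on chromosome 11. The 3 active libraries came from cells with the active T3H48 hammerhead ribozyme, a self-cleaving RNA, knocked into intron 3 of Actg1, and the 3 inactive libraries from cells with the inactive form at the same place. Both groups thus carry an insertion in Actg1, the gene of cytoplasmic gamma-actin, and there was no library from unedited cells. The design text speaks of genotyped stable lines, and it is not stated whether replicate libraries stem from separate lines or cultures. The p-values therefore reflect the spread among the 6 libraries alone, possibly a technical one, and ribozyme activity cannot be told apart from line identity.

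Serpina3b, Serpina3h and Serpinf1 were chosen because their regions differed between the active and inactive libraries. The values in their windows are for this reason a description and carry no test. The values are taken as normalised reads: by their pattern, reads per region scaled to a common depth and rounded. This step is not stated in the sources used here. Totals over all regions lay between 6433944 and 6548535 normalised reads per library. The unscaled depth, estimated from the spacing of the values, was 3710000 to 6840000 reads for active and 7330000 to 8960000 reads for inactive libraries, so low values in the active libraries carry more counting error. Accessibility does not measure transcription, and no RNA was analysed here.

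Serpins are a large family of proteins, most of which inhibit serine proteases. An inhibitory serpin offers an exposed reactive loop as bait, and the protease that cuts it is trapped in a covalent complex. In the mouse, the gene that in humans codes for antichymotrypsin (SERPINA3) has been duplicated into a cluster of Serpina3 genes, several of which are acute phase genes that rise in inflammation. Serpinf1 codes for pigment epithelium-derived factor, a secreted serpin that does not inhibit proteases and is known for opposing blood vessel growth. Fibroblasts are also known to make serpins that restrain plasmin formation and a serpin that helps to fold collagen.

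Promoter sequences were available from RefSeq (build GRCm38.p6) for 17 of the 21 serpin genes. The start sites of Serpina3b and Serpinf1 had no region over them, although regions centred 3832 and 1167 bp away, in that order, differed. Their promoter sequences are shown here, with those of Serpinb2 and Serpinb8, neighbours whose promoters lay under a region. Each runs 5′ to 3′ on the gene's own strand from 250 bases before to 30 bases after the start site. Capitals mark matches, on either strand, to the TATA box (TATAAA), the CCAAT box (CCAAT), the AP-1 site (TGACTCA), the cAMP response element (TGACGTCA) and the STAT site (TTCNNNGAA).
Serpina3b, chr12:104127746-104128025, plus strand: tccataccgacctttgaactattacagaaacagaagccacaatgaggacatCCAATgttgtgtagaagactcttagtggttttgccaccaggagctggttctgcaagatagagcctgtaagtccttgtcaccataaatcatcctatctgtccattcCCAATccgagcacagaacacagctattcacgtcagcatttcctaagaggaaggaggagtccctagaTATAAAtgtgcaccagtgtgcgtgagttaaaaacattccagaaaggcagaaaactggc
Serpinf1, chr11:75422594-75422873, minus strand: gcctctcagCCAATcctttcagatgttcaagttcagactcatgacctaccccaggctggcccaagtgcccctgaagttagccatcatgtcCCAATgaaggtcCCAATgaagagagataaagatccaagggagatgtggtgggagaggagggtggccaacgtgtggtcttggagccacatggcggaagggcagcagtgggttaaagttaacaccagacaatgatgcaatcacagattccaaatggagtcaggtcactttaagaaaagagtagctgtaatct
Serpinb2, chr1:107511173-107511452, plus strand: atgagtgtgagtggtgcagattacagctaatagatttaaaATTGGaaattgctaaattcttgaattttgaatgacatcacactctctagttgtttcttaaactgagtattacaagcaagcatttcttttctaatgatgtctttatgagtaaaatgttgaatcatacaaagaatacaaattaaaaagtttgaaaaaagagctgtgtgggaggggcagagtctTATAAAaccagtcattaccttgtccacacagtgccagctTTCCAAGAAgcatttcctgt
Serpinb8, chr1:107589756-107590035, plus strand: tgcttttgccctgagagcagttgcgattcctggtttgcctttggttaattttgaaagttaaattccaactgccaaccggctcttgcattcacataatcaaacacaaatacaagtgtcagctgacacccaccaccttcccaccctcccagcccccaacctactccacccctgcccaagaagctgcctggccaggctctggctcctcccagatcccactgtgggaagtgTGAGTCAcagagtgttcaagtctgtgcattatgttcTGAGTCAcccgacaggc

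The Serpina3b promoter held a TATA box whose first base lay at -28 and CCAAT boxes at -199 and -94, counted from the start site. The Serpinf1 promoter held CCAAT boxes at -241, -160 and -148 and no TATA box. The Serpinb2 promoter held a TATA box at -29, a CCAAT box on the other strand at -210 and a STAT site at 11. That of Serpinb8 had AP-1 sites at -23 and 14, both on the other strand. Over the 300 bases around the start site of all 32851 promoters in the table, 13.6% held a TATA box, 37.4% a CCAAT box, 5.2% an AP-1 site, 1.79% a cAMP response element and 8.3% a STAT site. These matches describe letters and not bound sites. The GC content of the 300 bases was 44.3% for Serpina3b, 50.7% for Serpinf1, 35.3% for Serpinb2 and 53.3% for Serpinb8, against a median of 52.7% over all promoters. In a global alignment the Serpina3b promoter shared 68.6% of positions with that of Serpina3n and 39.3% with that of Serpina3g, both genes of the same cluster. The Serpina3c and Serpina3n promoters shared 89.9%. How reads that map to more than 1 copy were treated is not given in the sources used here.

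In and near the Serpina3 cluster lay a row of regions that were accessible in the active libraries and mostly near 0 in the inactive ones. From a region near Serpina3b to a region near a snoRNA gene, 9 consecutive regions on chromosome 12 (mm39, 104090293 to 104389288) were at least 2-fold higher in the active libraries, over a span of 299 kb. In all 9 the lowest active value lay above the highest inactive value. Among all regions of the data, 14.4% were at least 2-fold higher, and in 31.6% every active library was above every inactive one; since the cluster was selected on this contrast, nothing is read from its counts. Their summed signal was 717, 717 and 683 normalised reads in active 1 to 3 and 90, 92 and 84 in inactive 1 to 3, or 705.7 ± 19.6 against 88.7 ± 4.16 (SD, n = 3 each), 7.96-fold higher. Of the inactive sums, 65, 65 and 56 came from 1 region, at 104381745. In 8 of the 9 the inactive mean was under 10, a level at or under which the inactive mean lay in 8.02% of all regions. Only 1 of the 9 would have passed the filter on low values through the inactive libraries alone.

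Serpina3b codes for a secreted Serpina3 paralog. Its region at 104090293 to 104090552, 3832 bp from the start site, had 40, 27 and 31 normalised reads in the active libraries and 6, 6 and 4 in the inactive ones. The active libraries were all above the inactive ones, with active 1 the highest. The means were 32.7 ± 6.66 and 5.3 ± 1.15 (SD, n = 3 each), 6.13-fold apart and the lowest active mean of the 9. The next region, at 104152518 to 104152918 with no annotated gene, had 80, 90 and 70 against 6, 8 and 5, a 12.6-fold difference of the means. That at 104189483 to 104190227, also with no annotated gene, had 57, 48 and 60 against 1, 2 and 5. In both, the lowest active library was far above the highest inactive one.

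Serpina3h, which the table lists as a long noncoding RNA gene, had 2 regions. The one 136 bp from its start site, at 104213850 to 104214119, had 44, 41 and 46 normalised reads in the active and 2, 2 and 0 in the inactive libraries. The one 4485 bp away, at 104209479 to 104209793, had 52, 57 and 50 against 1, 1 and 1. No fold is given where an inactive total of the 3 libraries was under 10, since it would rest on a few reads. The active libraries lay within 7 normalised reads of each other in both regions, and the inactive libraries were near 0. By the estimates above, the inactive libraries were the deeper ones; the part of depth in these values was not tested.

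Beyond the Serpina3h gene, a region at 104222802 to 104223129 had 74, 74 and 68 against 1, 0 and 3 normalised reads. The region at 104237670 to 104238096 had 53, 57 and 48 against 2, 1 and 3. Neither carried a gene name, and in neither did the groups overlap. No region was listed between 104238096 and 104381745, a gap within the row that is wider than the 56217 bp at its left border. The last 2 of the 9 lay beyond this gap, outside the 150 kb window. They were annotated to a snoRNA gene, 3542 and 3466 bp from its start site. The region at 104381745 to 104382488 had 253, 254 and 239 against 65, 65 and 56, a 4.01-fold difference. It was the only one of the 9 that was well above 10 in the inactive libraries. The region at 104388961 to 104389288 had 64, 69 and 71 against 6, 7 and 7, a 10.2-fold difference. The 9 regions were 259 to 744 bp wide, with a median of 327 bp, against 447 bp over all regions.

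By RefSeq gene order, the Serpina3 cluster runs from Serpina3a to Serpina3n and holds 14 genes and pseudogenes, of which only Serpina3b and Serpina3h had a region annotated to them in the table. Upstream lie Serpina5, an inhibitor of protein C, Serpina12, a secreted adipose serpin, and Serpina1e, a gene of the alpha-1-antitrypsin group. Downstream of Serpina3n follow a snoRNA gene, Gsc, a homeobox gene, and Dicer1, which codes for the nuclease that makes microRNAs.

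**Figure D1:**
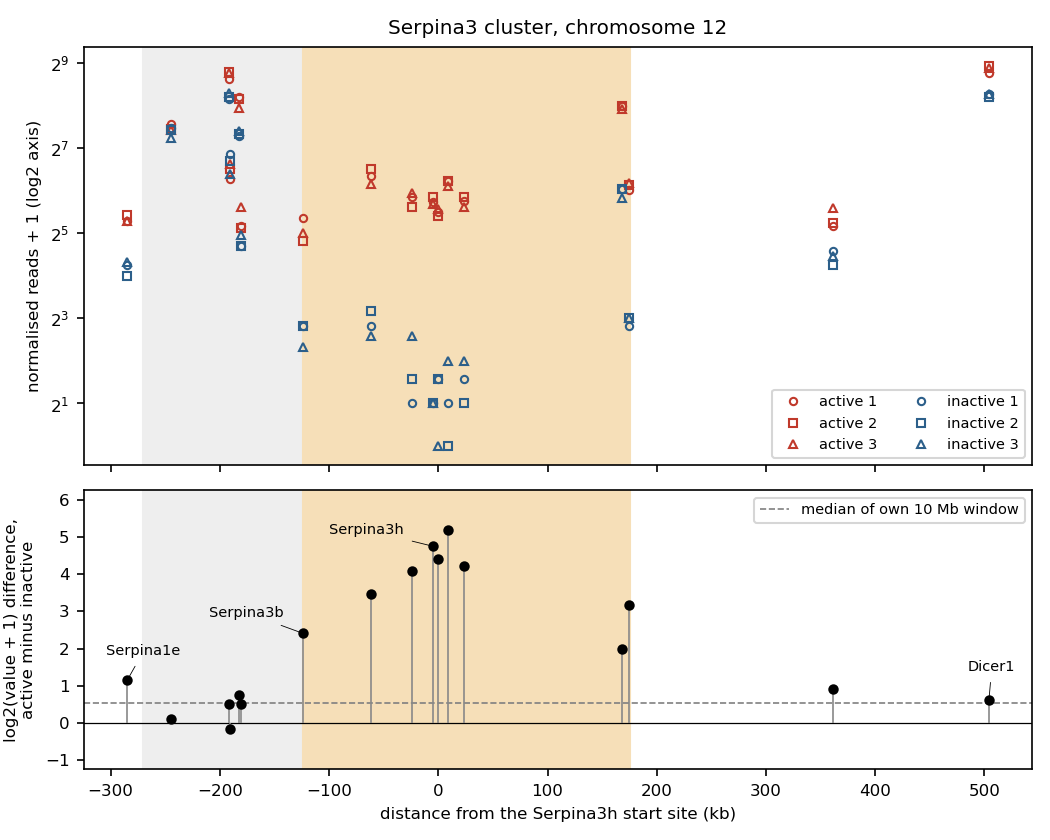
Normalised reads plus 1 in each library (top, log2 axis) and the mean log2(value + 1) difference (bottom) for the regions from Serpina1e to Dicer1, by distance in kb from the Serpina3h start site. Orange shading marks the 9 consecutive regions at least 2-fold higher in active libraries and grey shading the part of the 150 kb window outside them; the dashed line is the median of the surrounding 10 Mb, 0.54. Inactive libraries sit near 0 over most of the orange span, except at a region near its right end with 56 to 65 reads, and the groups come close to each other or overlap on its left side.

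The change ended on the left within a gap of 56217 bp. The first region outside, at 104033902 to 104034075, had 35, 34 and 48 normalised reads against 25, 25 and 30, a log2 ratio of the means of 0.55. The next, at 104030916 to 104031784, had 290, 284 and 243 against 154, 160 and 167, a log2 ratio of 0.76. The third, at 104023386 to 104023953, had 76, 90 and 98 against 114, 103 and 82, a log2 ratio of -0.18. The first and next regions were still above in every active library, whereas in the third the groups overlapped. In the inactive libraries these 3 had 25 to 167 normalised reads, whereas 8 of the 9 consecutive regions had an inactive mean under 10 there. Further left in the window, the regions at 104021958 and 103968641 had log2 ratios of 0.51 and 0.10.

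On the right the border fell in a gap of 185961 bp in which the table lists no region. The region after the gap, at 104575250 to 104575511, had 35, 37 and 47 normalised reads against 23, 18 and 21, a log2 ratio of 0.94. The Dicer1 promoter, at 104717610 to 104718738, had 435, 484 and 465 against 309, 292 and 305, a log2 ratio of 0.61. A region at 104870378 to 104870714 had 44, 42 and 43 against 23, 22 and 34, a log2 ratio of 0.71. None of the 3 reached 2-fold, yet all active libraries were above all inactive ones. Allowing 1 interruption did not lengthen the stretch on either side.

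By their medians, the regions within 1 Mb of the borders were close to the level of their surroundings. On chromosome 12, with 1798 tested regions, the median log2 fold change was 0.50, and that of the 10 Mb around the cluster 0.54. Within 1 Mb of the left border the median log2 ratio was 0.60 over 17 regions, and within 1 Mb of the right border 0.54 over 21 regions. The log2 ratios of the regions ranged from -0.18 to 4.40 on the left and from -0.13 to 2.30 on the right. Single regions at least 2-fold higher were found on both sides, 6 of 17 on the left and 5 of 21 on the right, and 0 were lower. On the rest of chromosome 12 the shares were 27% higher and 4.19% lower, and over all regions 14.4% and 7.88%. The nearest such higher region on the left was that of Serpina1e, at 103929153 to 103929394. Farther left, the promoter of Ppp4r4, a regulatory subunit of a protein phosphatase, had 126, 102 and 109 normalised reads against 2, 5 and 9, a log2 ratio of 4.40. A region of Ifi27l2b, an interferon-inducible gene, had 32, 34 and 38 against 11, 8 and 8, a log2 ratio of 1.95. Regions at least 2-fold higher on this stretch of chromosome 12 were thus not limited to the cluster.

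Within the 150 kb window, 7 of 12 regions were at least 2-fold higher and 0 at least 2-fold lower. Over all regions of the table the shares were 14.4% higher and 7.88% lower, and on the rest of chromosome 12 they were 27% and 4.19%. Since the window was selected on this contrast, nothing is read from that count. The groups did not overlap in 10 of the 12 regions, all of them higher, against 31.6% of the whole table. The summed signal of the window was 1383, 1415 and 1366 against 773, 772 and 762 normalised reads, a log2 ratio of 0.85. After centring on the surrounding 10 Mb the ratio was 0.31. The table held 4692 stretches of consecutive regions at least 2-fold higher, with a median of 1 region. In 42 of them there were 9 or more regions, 3 of these on chromosome 12, and the longest had 16.

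The region of Serpinf1 moved in the other direction. At 75311859 to 75312860 on chromosome 11, 1167 bp from the start site, it had 51, 34 and 44 normalised reads in the active and 146, 172 and 132 in the inactive libraries. The highest active value was well below the lowest inactive one. The means were 43.0 ± 8.54 and 150 ± 20.3 (SD, n = 3 each), 3.49-fold lower in the active libraries. The neighbouring region at 75322190 to 75322546, annotated to a processed pseudogene 3789 bp away, had 6, 7 and 10 against 25, 23 and 21, a 3-fold difference in the same direction. Here too the groups did not overlap. These 2 regions formed the whole stretch at least 2-fold lower that touches Serpinf1, with summed means of 50.7 ± 8.51 and 173 ± 21.1 and a span of 11 kb. Of 3218 stretches at least 2-fold lower over all regions, 599 had 2 or more regions, 47 of these on chromosome 11.

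The borders around Serpinf1 were close. On the left, after a gap of 16955 bp, the region at 75294320 to 75294903 had 81, 104 and 77 normalised reads against 125, 140 and 121, a log2 ratio of -0.56. That at 75293152 to 75293485 had 44, 23 and 29 against 50, 39 and 43, and that at 75290213 to 75290531 had 63, 62 and 60 against 44, 61 and 51. The groups were separate in the first of these and overlapped in the other two. On the right, after a gap of 22504 bp, came the promoter of Wdr81, a protein of endosome traffic, with 165, 187 and 177 against 199, 214 and 200, a log2 ratio of -0.21. A region of Tlcd2, a membrane lipid gene, at 75351321 to 75351512 had 95, 97 and 84 against 89, 94 and 71. Another Tlcd2 region, 235 bp from the start site, had 618, 728 and 567 against 741, 777 and 757. Of these right-hand neighbours, Wdr81 and the second Tlcd2 region were lower in every active library by less than the 2-fold bound.

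**Figure D2:**
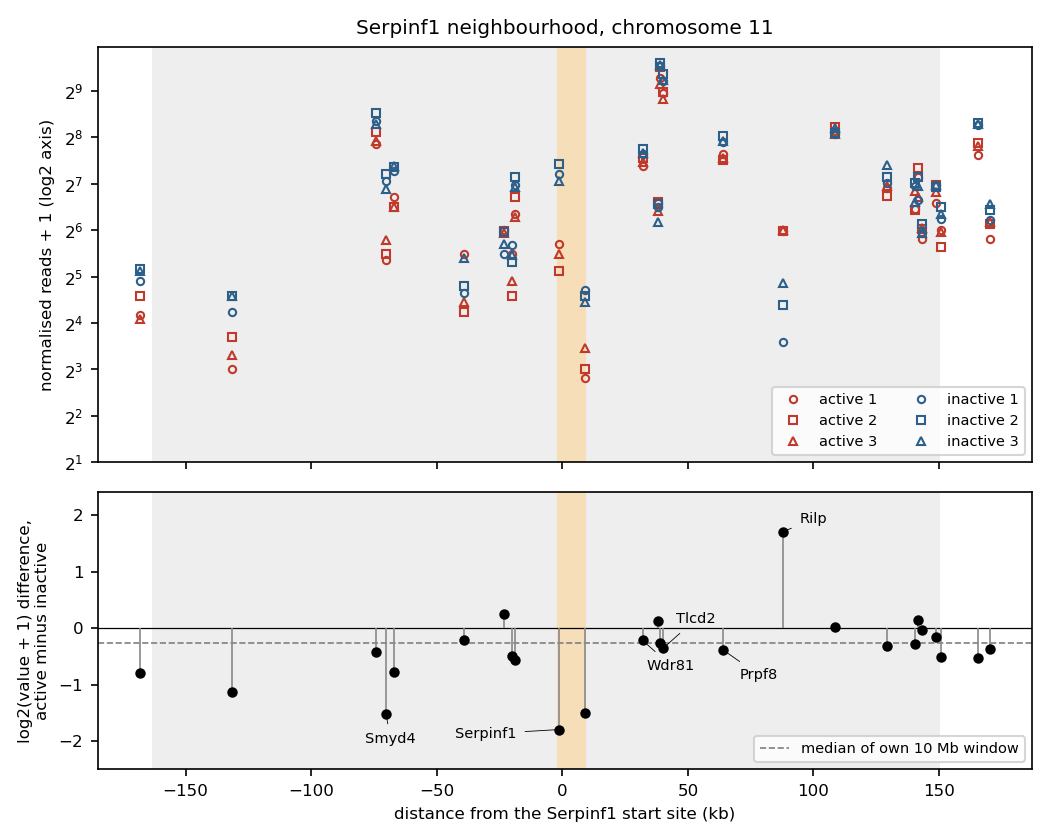
Normalised reads plus 1 in each library (top, log2 axis) and the mean log2(value + 1) difference (bottom) for regions around Serpinf1, by distance in kb from its start site. Orange shading marks the 2 consecutive regions at least 2-fold lower that touch Serpinf1 and grey shading the rest of the 150 kb window; the dashed line is the median of the surrounding 10 Mb, -0.27. Most regions lie slightly below 0, Smyd4 and Serpinf1 lie lowest, and Rilp is the high exception.

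In the Serpinf1 window, 4 of 22 regions were at least 2-fold lower and 1 was at least 2-fold higher, and the groups did not overlap in 13, with 12 of these lower and 1 higher. In the whole table, 7.88% of regions were at least 2-fold lower, and in 30.4% every active library was below every inactive one. Nothing is read from these counts, as this window was also selected on the contrast. On the rest of chromosome 11 the shares were 9.41% lower and 6.71% higher. The other 2 lower regions were one with no gene at 75181851 to 75182029, with 7, 12 and 9 against 18, 23 and 23 normalised reads, and one of Smyd4, a lysine methyltransferase family gene. The Smyd4 region, 4049 bp from its start site, had 40, 44 and 54 against 133, 147 and 118, a log2 ratio of -1.53. The Smyd4 promoter itself differed less, with 229, 274 and 241 against 323, 365 and 310, a log2 ratio of -0.42. The higher region was 361 bp from the start site of Rilp, which codes for an effector of lysosome transport, with 62, 62 and 63 against 11, 20 and 28. It lay between the promoters of Prpf8, a core spliceosome gene, with a log2 ratio of -0.39, and Slc43a2, an amino acid transporter gene, with 0.02.

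The window as a whole summed to 3078, 3262 and 2951 normalised reads in the active and 3713, 4052 and 3789 in the inactive libraries, a log2 ratio of -0.31. Over the 3202 tested regions of chromosome 11 the median log2 fold change was -0.25, and over the surrounding 10 Mb -0.27. Centred on that 10 Mb, the ratio of the window was -0.05. Within 1 Mb of the stretch, 12 of 56 regions on the left and 8 of 58 on the right were at least 2-fold lower. On each side 1 region was at least 2-fold higher. The shares on the rest of chromosome 11 were 9.41% lower and 6.71% higher, and over all regions 7.88% and 14.4%. Regions just inside the 150 kb limit were the one at 75181851, described above, and one at 75461964 with 95, 125 and 112 against 125, 120 and 124. Just outside it, a region on the left had 17, 23 and 16 against 29, 35 and 34, and one on the right had 63, 49 and 61 against 75, 90 and 80. For the Serpina3 window the region inside the left limit was that at 103968641, with 189, 173 and 170 against 177, 170 and 150, and Serpina1e was the first outside. On its right the limit fell between the regions at 104237670 and 104381745 given above.

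Serpin-named regions outside these windows were tested, since their gene name and not their own values chose them. The serpin family itself was chosen with earlier results of these data known. Serpina1e was also the first region outside the left limit of the Serpina3 window, so its test is less free of that choice. There were 26 Serpin-named regions outside the windows, of 18 genes, and 24 had the mean of at least 10 normalised reads needed for the test. By limma on log2(value + 1), with adjusted p under 0.05 over all 51253 tested regions, 13 were higher in the active libraries, 6 were lower and 5 did not pass. Over all regions 30.9% were higher and 29.2% lower. The median log2 fold change was 0.27, against -0.02 over all tested regions. With values centred on the median of the surrounding 10 Mb, 6 were higher and 6 lower, against 27.6% and 22.4% of all regions. The split between higher and lower calls among serpins thus moved with this centring. Scaled to equal column totals it was 12 higher and 6 lower, and with quantile normalization 10 higher and 8 lower.

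**Figure D3:**
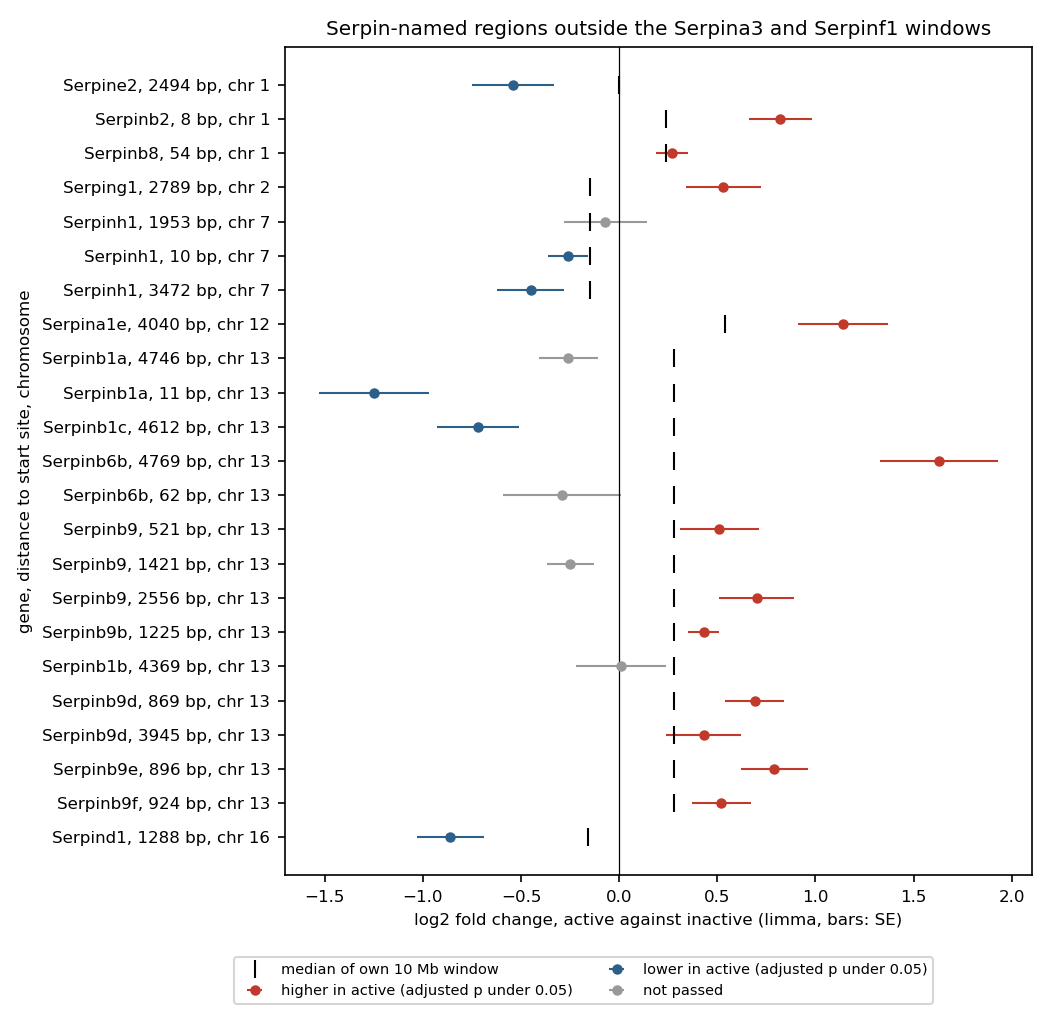
Log2 fold change (limma, active against inactive, bars SE) of 23 tested serpin regions outside the Serpina3 and Serpinf1 windows, each labelled by gene, distance to the start site and chromosome. Black ticks give the median of the region's own 10 Mb; Serpinb6b and Serpina1e lie farthest to the right and the Serpinb1a promoter farthest to the left.

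Of these regions 3 changed by at least 2-fold. The Serpina1e region, 4040 bp from its start site, had 38, 42 and 38 against 18, 15 and 19 normalised reads, a log2 fold change of 1.14 ± 0.23 SE (adjusted p = 3.39e-05 by limma). Serpinb6b belongs to the intracellular clade B serpins. Its region at 33144323 to 33144522 on chromosome 13 had 25, 28 and 34 against 13, 7 and 7, a log2 fold change of 1.63 ± 0.30 SE (adjusted p = 1.29e-05 by limma). The inactive mean of this region was 9.0. It thus passed the minimum mean of 10 only through the active libraries, which limits what its p-value can show. Serpinb1a codes for an inhibitor of neutrophil elastase, and its promoter at 33035043 to 33035270 had 8, 14 and 11 against 25, 28 and 28, a log2 fold change of -1.25 ± 0.28 SE (adjusted p = 0.000235 by limma). The groups did not overlap in any of the 3. All 3 calls also held after centring on the surrounding 10 Mb, with log2 fold changes of 0.60, 1.35 and -1.53.

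Of the serpins that restrain plasminogen activation and coagulation, none of those named next changed by 2-fold. Serpinb2 codes for an inhibitor of urokinase. Its promoter had 80, 76 and 72 against 45, 37 and 46, a log2 fold change of 0.82 ± 0.16 SE (adjusted p = 1.83e-05 by limma), and 0.58 after centring. The groups did not overlap. Its neighbour Serpinb8, an inhibitor of furin-like proteases, had 250, 274 and 256 against 238, 210 and 198 at its promoter, a log2 fold change of 0.27 (adjusted p = 0.00455 by limma). After centring this was 0.03. The third Serpin-named region of this chromosome 1 cluster, that of Serpinb11, had 5, 5 and 11 against 6, 7 and 7 and was too low for the test.

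Serpine2 codes for protease nexin, an inhibitor of thrombin and urokinase. Its region, 2494 bp from the start site, had 25, 28 and 27 against 34, 35 and 50 normalised reads, a log2 fold change of -0.54 ± 0.21 SE (adjusted p = 0.0253 by limma). The call was lost without active 1 (-0.49) and without inactive 3 (-0.36). Serpind1, which codes for heparin cofactor, a thrombin inhibitor, was lower 1288 bp from its start site, with 34, 46 and 46 against 70, 94 and 67 and a log2 fold change of -0.86 ± 0.17 SE (adjusted p = 2.61e-05 by limma). Serping1 codes for the inhibitor of the first complement proteases. A region 2789 bp away had 46, 65 and 45 against 34, 44 and 29, a log2 fold change of 0.53 ± 0.19 SE (adjusted p = 0.0154 by limma). Without active 2 it was 0.36 and without inactive 3 it was 0.40, and the call was lost in both cases. The call was also lost with quantile normalization (0.37).

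Serpinh1, which codes for the collagen chaperone of the endoplasmic reticulum, had 3 regions. The promoter had 149, 140 and 142 against 178, 180 and 159 normalised reads, a log2 fold change of -0.26 ± 0.10 SE (adjusted p = 0.0194 by limma). It lost the call without inactive 1 or inactive 2 (both -0.23) and after centring on the surrounding 10 Mb (-0.11, adjusted p = 0.338 by limma). The region 3472 bp away had 48, 69 and 52 against 57, 85 and 92, with overlapping groups, and a log2 fold change of -0.45 (adjusted p = 0.0179 by limma). Its call was lost when any of active 1, active 3, inactive 2 or inactive 3 was left out, with values of -0.35, -0.40, -0.37 and -0.32, and after centring (-0.30). A region 1953 bp away had 35, 34 and 27 against 29, 43 and 30 and did not pass (a log2 fold change of -0.07 ± 0.21 SE with an adjusted p of 0.785 by limma).

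The clade B cluster on chromosome 13 (33030264 to 33509267) changed in both directions. Of its 15 Serpin-named regions, 8 were higher, 2 lower, 4 did not pass and 1 was not tested, where 30.9% of all tested regions were higher and 29.2% lower. Over all 34 tested regions of that span, 14 were higher and 7 lower, and the median of the surrounding 10 Mb was 0.28. After centring on that median, 3 of the 15 counted as higher and 4 as lower, and the shares over all regions were 27.6% and 22.4%. The lower ones without centring lay at 1 end of the cluster: the Serpinb1a promoter, given above, and a region 4612 bp from the start site of Serpinb1c, a related elastase inhibitor gene. The latter had 23, 23 and 22 against 34, 39 and 41 normalised reads, a log2 fold change of -0.72 ± 0.21 SE (adjusted p = 0.00364 by limma). The other Serpinb1c region, with 5, 2 and 3 against 8, 13 and 5, was not tested. Serpinb1b had 32, 27 and 27 against 29, 37 and 21 and did not pass (a log2 fold change of 0.01 with an adjusted p of 0.959 by limma). The Serpinb6b promoter had 27, 27 and 9 against 22, 19 and 30 and did not pass either (adjusted p = 0.425 by limma), with active 3 standing below the other active libraries.

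**Figure D4:**
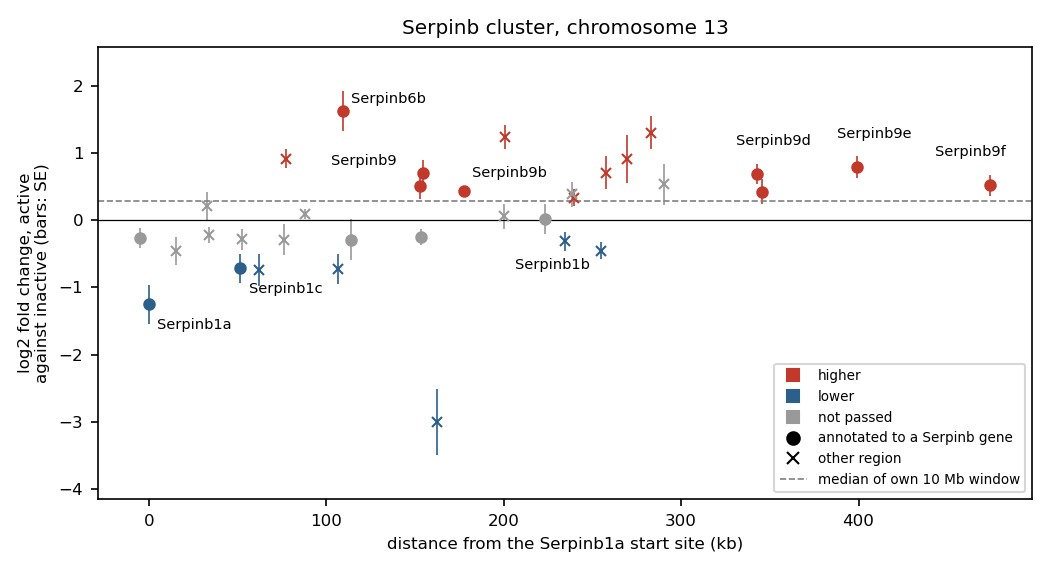
Log2 fold change (limma, active against inactive, bars SE) of the 34 tested regions from Serpinb1a to Serpinb9f by distance in kb from the Serpinb1a start site, circles for regions annotated to a Serpinb gene and crosses for other regions. Red is higher, blue lower and grey not passed at adjusted p under 0.05; lower Serpinb regions sit at the left end and the Serpinb9d, Serpinb9e and Serpinb9f regions, all higher, at the right.

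Among the Serpinb9 genes, Serpinb9 itself codes for an inhibitor of granzyme B. Of the 3 Serpinb9 regions, the one 521 bp from the start site had 55, 35 and 43 against 29, 32 and 30 normalised reads, a log2 fold change of 0.51 (adjusted p = 0.025 by limma). It lost the call without active 1 (0.35), inactive 1 (0.48) or inactive 3 (0.50), with quantile normalization (0.34) and after 10 Mb centring (0.23). The region 2556 bp away was higher (0.70, adjusted p = 0.00176 by limma), but not after centring (0.42, adjusted p = 0.0784 by limma). The one 1421 bp away did not pass (-0.25, adjusted p = 0.0812 by limma). After 10 Mb centring it was called lower (-0.53, adjusted p = 0.000865 by limma), as it was centred on the chromosome (-0.58). It was also called lower with quantile normalization (-0.29) and without active 2 (-0.34). Serpinb9b was the most accessible region of the group, with 318, 369 and 331 against 245, 274 and 234 and a log2 fold change of 0.43 ± 0.08 SE (adjusted p = 7.16e-06 by limma). The groups did not overlap there, but after 10 Mb centring the value was 0.15 and the call was lost (adjusted p = 0.116 by limma).

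Serpinb9d, Serpinb9e and Serpinb9f each had a region at nearly the same distance from the start site, 869, 896 and 924 bp. At Serpinb9d the values were 85, 81 and 92 against 52, 66 and 43 normalised reads, a log2 fold change of 0.69 ± 0.15 SE (adjusted p = 0.000153 by limma). At Serpinb9e they were 55, 80 and 79 against 38, 39 and 44, a log2 fold change of 0.79 ± 0.17 SE (adjusted p = 9.34e-05 by limma). At Serpinb9f they were 85, 69 and 75 against 65, 46 and 49, a log2 fold change of 0.52 ± 0.15 SE (adjusted p = 0.00379 by limma). All 3 were above in every active library. After 10 Mb centring, Serpinb9d (0.41) and Serpinb9e (0.51) kept the call and Serpinb9f lost it (0.24, adjusted p = 0.223 by limma). Centred on the chromosome, Serpinb9d lost it too (0.35). These genes are close copies of each other, and their regions may share reads, so the 3 results are uncertain as separate results. A further Serpinb9d region, 3945 bp away, had 64, 41 and 50 against 42, 42 and 30 and was called (0.43, adjusted p = 0.0482 by limma), with overlapping groups. Its call was lost without active 1 (0.26), active 3 (0.44) or inactive 3 (0.27) and after 10 Mb centring (0.15). The same held when scaled to equal column totals (0.42), with quantile normalization (0.27) and centred on the chromosome (0.09).

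Lists of genes that serpins act on or answer to were counted in the same fit, in which 30.9% of all regions were higher and 29.2% lower with a median log2 fold change of -0.02. Of 35 target protease genes, 16 had a tested region: of their 20 regions, 6 were higher, 4 lower and 10 did not pass, with a median log2 fold change of -0.17. The count of lower regions was 1 without active 1 or inactive 1, 2 without inactive 2, 0 without inactive 3 and 0 with limma without trend. The highest was 105 bp from the start site of Gzmb, the granzyme B gene, with 48, 53 and 57 against 9, 3 and 10 normalised reads and a log2 fold change of 2.82 ± 0.30 SE (adjusted p = 1.78e-10 by limma). The inactive mean of the Gzmb region was 7.3. It thus passed the minimum mean of 10 only through the active libraries, which limits what its p-value can show. Regions of F11, a clotting factor gene (1.04), Masp2, a lectin pathway protease gene (0.69), and Prss8, a membrane protease gene (0.38), were also higher. Plat, which codes for tissue plasminogen activator, was lower (-0.38, adjusted p = 0.0466 by limma).

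Among 23 receptor, cofactor and client genes, 18 had a tested region, and of 34 regions 7 were higher, 13 lower and 14 did not pass (median -0.13), beside 30.9% higher and 29.2% lower over all regions. The 13 lower became 8 without inactive 1 and 6 after 10 Mb centring. Among those that changed were F2rl1, a protease-activated receptor gene (1.01, adjusted p = 0.00143 by limma), Col3a1 (-0.85) and Col1a2 (0.79), fibrillar collagen genes, and Plxdc2, a gene of a receptor for pigment epithelium-derived factor (-0.67). Only 1 region of each collagen gene is given, 4717 bp from the Col3a1 and 2631 bp from the Col1a2 start site. Without centring these regions moved in opposite directions. Both changes were below the median of their own 10 Mb, 1.02 for Col1a2 and -0.12 for Col3a1.

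Of 20 genes that control the acute phase response, 16 had a tested region, and of 18 regions 5 were higher, 9 lower and 4 did not pass (median -0.14), beside the same 30.9% and 29.2%. The 9 lower became 5 after 10 Mb centring, 4 after centring on the chromosome and 5 with limma without trend, and the 5 higher became 3 after centring on the chromosome. Cebpa, which codes for a liver and fat cell transcription factor, had 44, 42 and 45 against 128, 99 and 128 normalised reads 318 bp from its start site, a log2 fold change of -1.41 ± 0.14 SE (adjusted p = 3.28e-11 by limma). The receptor genes Lifr (2.43, adjusted p = 8.17e-10 by limma) and Osmr (1.23) and the pioneer factor gene Foxa1 (1.72) were higher, and Il6ra, the interleukin receptor gene, was lower (-0.51). At Lifr the values were 53, 34 and 45 against 9, 7 and 6, with no overlap. With an inactive mean of 7.3, the Lifr region passed the minimum mean of 10 only through the active libraries.

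Other acute phase genes were mostly without a region. Of 17, only 5 had a tested one, and of their 8 regions 5 were higher, 1 lower and 2 did not pass (median 1.05), beside 30.9% and 29.2% over all regions. Orm1, an acute phase plasma protein gene, had 25, 37 and 15 against 6, 3 and 6 normalised reads 159 bp from its start site, a log2 fold change of 2.11 ± 0.37 SE (adjusted p = 6.41e-06 by limma). With an inactive mean of 5.0, the Orm1 region passed the minimum mean of 10 only through the active libraries. Il1rn, the gene of the interleukin receptor antagonist (1.72), and Saa2, a serum amyloid gene (0.96), were higher, and Timp1, a metalloprotease inhibitor gene, was lower (-0.52). At Saa2 the groups overlapped, with 40, 18 and 41 against 13, 15 and 19.

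Markers of the cells that make serpins in the body were examined by regions within 1 kb of their start sites. Of 13 fibroblast markers, 7 had such a region, and their summed signal was 2174 to 2344 in active and 2731 to 2869 in inactive libraries. None of the 8 hepatocyte markers, Alb and Apoa1 included, had one. Of 5 astrocyte markers Gfap and Slc1a3 had one (62 to 90 against 111 to 118). Kdr was the only endothelial marker of 5 (74 to 82 against 5 to 9), Krt8 the only epithelial marker of 6 (134 to 171 against 78 to 89) and Cd68 the only immune marker of 5 (51 to 69 against 51 to 57). The part of the Kdr and Krt8 differences in the serpin results was not tested.

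Regions of other named genes whose 6 values were most like those of the serpins were found by the Euclidean distance of log2(value + 1) over the 6 libraries. For Serpina3b these were regions of Trim14, Ms4a2 and Ccl4, at distances of 0.65, 0.70 and 0.72. For the Serpina3h region at 104209479 they were Selp, Gm9008 and Galntl6, at 1.35, 1.55 and 1.60. Serpinf1 was matched by Trav6-7-dv9 (0.42), Cdk14 (0.48) and Gpsm1 (0.58). The Selp region, 766 bp from the start site of the P-selectin gene on chromosome 1, had 58, 51 and 41 against 2, 2 and 3 normalised reads. None of these matched regions lay on chromosome 12, and that of Ccl4 lay on chromosome 11 but away from the Serpinf1 window.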

How the data were processed

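ATAC-seq libraries of 6 samples (3 active, 3 inactive ribozyme) were analysed. Digitonin lysis and transposition took place in 1 step, per the labels' protocols. The tools that the submitters' processing notes list are DESeq2 1.36.0, featureCounts, Picard 3.1.1, STAR 2.7.11a and Trimmomatic 0.39, and the build is mm39; the peak caller is not given in the sources used here. Each deposited value is a score. By the pattern of the values it was taken as a region's reads after scaling by library and rounding, which the sources used here do not state. No count model was applied. The deposited distance to the start site was used as given.

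The members and gene lists were chosen with earlier results of these data known. Differences were tested on log2(value + 1) in limma 3.58.1 (trend, robust) in R 4.3.3 over 51253 regions with a mean of at least 10; 1704 fell below it. Adjustment was by Benjamini-Hochberg. Log2 fold changes on this scale understate changes of low regions; folds and log2 ratios in the windows use group means. The fit was tested on simulated data. Tables and plots used Python 3.11.15, numpy 2.4.6, pandas 2.3.3 and matplotlib 3.10.9.

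Named were all regions of the 3 genes, the consecutive regions at least 2-fold apart that touch them and 3 beyond each border, genes in the windows, other serpin regions past the threshold and 2-fold or at promoters, up to 5 genes per list by largest change (1 serpin region and 1 list gene are counted but not reported here singly), and the 3 most alike per gene. Other serpin regions and flanking genes were named after their values were seen. Alternatives covered pseudocount, filter, scaling, centring, trend, replicate block, window size and leaving out each library.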

Additional observations from a re-analysis of the deposited data

How the results depend on the processing

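Over 16 alternatives, or 15 for 2 regions too low for a minimum mean of 20 (the Serpinb1a promoter and Serpinb6b at 33144323), 7 of the 18 called regions reported singly kept their call in all that were run (Serpina1e, the Serpinb1a promoter, Serpinb1c, Serpinb2, Serpinb6b at 33144323, Serpinb9e and Serpind1), 11 lost it in at least 1, and 2 regions gained one. Of the 7 that kept it, Serpinb6b at 33144323 passed the filter on low values only through the active libraries. Centring on the own 10 Mb or the own chromosome reduced the higher serpin calls outside the windows from 13 to 6 in both cases. Leaving out 1 library gave 10 to 13 higher and 4 to 7 lower calls for these serpins, and 20 to 22 higher and 18 to 26 lower calls for the 4 lists (23 and 27 with all libraries). Among the lists, 15 were lower after 10 Mb centring and 15 with limma without trend. The summed Serpina3 window had a log2 ratio of 0.85, and of 0.31 centred on 10 Mb, 0.35 centred on the chromosome, 1.0 in a window of 100 kb and 1.03 in one of 300 kb. Its leave-one-out values were 0.84 to 0.86. The Serpinf1 window went from -0.31 to -0.05, -0.07 and, at 100 kb, -0.38, with leave-one-out values of -0.35 to -0.28. The fewer or more regions in a smaller or larger window, and the subtraction of the surroundings, make these differences by construction. With limma without trend the calls of Serpinb8, Serping1, the Serpinh1 promoter, Serpinh1 3472 bp away and Serpinb9d 3945 bp away were lost, and the cause was not tested. Centred on the chromosome, the Serpinh1 promoter (-0.13) and Serpinh1 3472 bp away (-0.32) lost the call, as did the Serpinb9d regions given above. So did Serpinb9 521 bp away (0.18) and 2556 bp away (0.37), Serpinb9b (0.10) and Serpinb9f (0.19).

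Directions that turned were those of Serpinh1 at 99000392 (0.08 and 0.06 centred, and -0.17 to 0.10 over single libraries left out, above 0 without active 3, 0.04, and inactive 2), the Serpinb6b promoter (-0.54 to 0.21 over single libraries left out, above 0 without active 3) and Serpinb1b (-0.20 with quantile normalization, -0.27 and -0.32 centred, and -0.19 to 0.20 over single libraries left out, below 0 without active 1, -0.06, and inactive 3). None of these was called with all libraries. The labels do not say whether the replicate numbers pair the samples. Deviations of same-numbered libraries correlated at 0.001, -0.006 and -0.016, which shows no shared deviation but cannot decide whether the samples were paired. With the replicate block, 13 serpin regions were higher and 6 lower, and 23 and 27 list regions, as without it. Where values were near 0 in the inactive libraries, by estimate the deeper ones, the size of change is not known.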
